A study of Homo sapiens with 6 samples.

Results

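The immediate early genes FOS, FOSB, JUN, JUNB, JUND, EGR1, ATF3, IER2, DUSP1 and MYC were examined in HEK293 cells after heat shock. They were chosen by name, and these 10 genes were found among the 24177 genes of the deposited assemblies, each at 1 of the 117001 loci of the authors' comparison table. The JUND locus of that table also held KIAA1683. HEK293 is an established human embryonic kidney cell line. RNA depleted of ribosomal RNA was sequenced from 3 Control and 3 HeatShock samples, grown at 37°C. The HeatShock cells were put into a tube at passaging and stood in a bath set to 45°C over 30 minutes, and the Control cells were left unheated. The sources used here do not say plainly whether the Control cells also stood in a tube. The study's text places collection 30 minutes after the heat shock, which the labels do not give. The values are FPKM, fragments scaled by transcript length and by the number of mapped fragments, so levels of different genes can be set side by side per length. A gene's FPKM in a library is the sum over its annotated transcripts and the assembled transcripts grouped with that gene alone.

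Immediate early genes are transcribed within minutes of a signal by factors that are already present in the cell, without the need for new protein. Growth factors and stress reach them through MAP kinases, which act on SRF with its partner ELK proteins and on CREB and ATF proteins bound at their promoters. The JUN and FOS proteins and ATF3 pair with each other to form AP-1 and related factors, EGR1 and MYC are separate transcription factors, IER2 is a nuclear protein of the same early wave, and DUSP1 is a phosphatase that switches the MAP kinases off again. Most of these messages are short-lived, and many carry AU-rich elements in their 3′ end. Handling such as the detachment of cells is known to switch on several of them.

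The promoters of JUN, JUND, DUSP1, ATF3, FOS and EGR1 are shown because the levels of JUN and DUSP1 lay apart between the groups on at least 1 of the scales used here, those of JUND and ATF3 did not, and FOS and EGR1 stood in the lower part of every library. MYC also lay apart on 1 of these scales, and its promoter is not shown here. Each sequence is the 200 bases before the transcript start given by GENCODE release 44, read from GRCh37, 5′ to 3′ on the strand of the gene. Capitals mark TGACGT, the full site TGACGTCA, its looser form TGANNTCA, the site GAANNTTC and the CArG box that SRF binds, each searched on both strands. The annotated transcripts of the assemblies begin at base 59249785 for JUN, 172198203 for DUSP1 and 75745481 for FOS, and the leading one of ATF3 at base 212781970, all inside the stretches shown.
JUN promoter, chr1:59249720-59249919, minus strand: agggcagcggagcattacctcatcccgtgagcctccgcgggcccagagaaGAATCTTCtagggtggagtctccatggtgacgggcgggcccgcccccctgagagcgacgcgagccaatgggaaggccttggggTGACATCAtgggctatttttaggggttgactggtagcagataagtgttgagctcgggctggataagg
JUND promoter, chr19:18392433-18392632, minus strand: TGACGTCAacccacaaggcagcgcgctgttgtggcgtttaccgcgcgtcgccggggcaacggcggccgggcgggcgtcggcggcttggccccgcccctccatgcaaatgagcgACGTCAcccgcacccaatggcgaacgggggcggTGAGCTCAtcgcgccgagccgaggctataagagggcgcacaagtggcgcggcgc
DUSP1 promoter, chr5:172198199-172198398, minus strand: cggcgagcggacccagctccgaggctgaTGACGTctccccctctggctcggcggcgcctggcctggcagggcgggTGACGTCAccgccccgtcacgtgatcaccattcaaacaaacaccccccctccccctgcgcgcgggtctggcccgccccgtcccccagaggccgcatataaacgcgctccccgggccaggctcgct
ATF3 promoter, chr1:212781903-212782102, plus strand: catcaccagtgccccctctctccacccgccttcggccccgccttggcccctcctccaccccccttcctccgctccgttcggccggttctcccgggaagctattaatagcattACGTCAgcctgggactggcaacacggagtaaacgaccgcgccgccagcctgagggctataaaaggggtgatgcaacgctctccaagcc
FOS promoter, chr14:75745331-75745530, plus strand: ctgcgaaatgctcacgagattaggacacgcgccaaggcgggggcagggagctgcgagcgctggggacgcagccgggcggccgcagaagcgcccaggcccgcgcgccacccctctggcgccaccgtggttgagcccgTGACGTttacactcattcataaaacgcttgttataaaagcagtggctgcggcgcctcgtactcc
EGR1 promoter, chr5:137800968-137801167, plus strand: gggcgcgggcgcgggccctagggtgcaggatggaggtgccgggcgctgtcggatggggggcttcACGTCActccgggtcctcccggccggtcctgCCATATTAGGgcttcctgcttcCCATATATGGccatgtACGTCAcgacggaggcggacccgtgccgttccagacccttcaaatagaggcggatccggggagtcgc

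The JUN promoter held TGACATCA from -67 to -60, counted back from the start, the kind of site that JUN and ATF2 bind as a pair, and GAATCTTC from -150 to -143, which has the spacing of a pair of heat shock factor units. The form GAANNTTC was in 1 of the 10 promoters and in 3.51% of 11631 promoters of tested genes, over the 250 bases before the start. TGANNTCA was in 3 of the 10 (JUN, JUND and DUSP1) and in 7.51% of all, and its full form TGACGTCA in JUND and DUSP1 and in 3.10% of all. TGACGT, which is part of TGACGTCA and is bound by CREB and ATF proteins, was in 6 of the 10 (FOS, FOSB, JUND, EGR1, ATF3 and DUSP1) and in 10.5% of all. Within these 250 bases a CArG box was found in EGR1 alone, from -105 to -96 and from -83 to -74, and in 1.10% of all promoters. The facing heat shock form TTCNNGAA was in 0 of the 10 and in 4.49% of all, and TATAA was in 7 of the 10 and in 10.1% of all. These are matches of letters in a window of fixed length. Sites further upstream were not searched, so a promoter without a match here can hold the site outside the window.

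Before the genes are compared, the libraries themselves have to be set side by side, because most genes moved together between them. A median-of-ratios factor was taken over the 983 genes that passed 10 FPKM in every library and is called the common factor. Control replicates 1, 2 and 3 had factors of 0.938, 0.434 and 0.957, and the HeatShock replicates had 2.13, 2.32 and 0.487. Control replicate 2 and HeatShock replicate 3 therefore stood apart from the other libraries of their groups, and both had a low share of their signal in annotated transcripts, 15.5% and 17.2% against 26.3% to 46.2% elsewhere. Relative depth, read as coverage per FPKM, spanned 1 to 2.03. Single-exon transcripts without a strand numbered 17304 in HeatShock replicate 1 and 194489 in Control replicate 2. Each result is given for FPKM as deposited and for FPKM divided by the common factor, called scaled FPKM. The HEK293 markers VIM, KRT18, NEFL and NEFM were present in all 6 libraries (VIM at 196 to 401 scaled FPKM), and 7 of 9 such markers passed the minimum mean of 1 FPKM used for testing, PAX8 and LHX1 being the exceptions. Of the markers of other cells, 0 of 4 for fibroblasts, 2 of 4 for blood (LYZ among them) and 1 of 2 for liver (APOA1) passed it. The fibroblast markers reached at most 0.354, PTPRC 0.792 and ALB 0.0668 scaled FPKM. LYZ was highest in Control replicate 2 and HeatShock replicate 3, at 7.28 and 8.53 scaled FPKM, and its part in the results was not tested.

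JUN lay higher in every HeatShock library once scaled, by a difference that did not pass correction over all genes. JUN, the core subunit of AP-1, had 14.4, 6.52 and 14.9 FPKM in the Control and 43.5, 44.7 and 10.2 FPKM in the HeatShock libraries as deposited. HeatShock replicates 1 and 2 lay above every control, while HeatShock replicate 3 lay inside the control range. As scaled FPKM, JUN stood at 15.3, 15.0 and 15.5 in the controls, against 20.4, 19.3 and 21.0 in the heated cells. All 3 HeatShock libraries lay above all 3 controls on that scale, with means of 15.3 ± 0.260 and 20.2 ± 0.853 (SD, n = 3). The mean after heat shock was 1.32 times the control mean. On log2(FPKM + 1) the difference was 0.38 (standard error 0.12, 95% interval 0.08 to 0.68), with an unadjusted p of 0.0209 and an adjusted p of 0.913 in limma. The adjusted value, corrected over the 13027 genes tested, does not pass the threshold of 0.05. In bulk RNA a change in the share of cells that express a gene and a change in its RNA per cell cannot be told apart.

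MYC lay lower in every HeatShock library once scaled, again without passing the correction. MYC, the factor that drives growth genes with its partner MAX, had 23.2, 12.2 and 19.9 FPKM in the controls, against 33.5, 36.0 and 6.61 FPKM in the heated cells as deposited. HeatShock replicates 1 and 2 were the highest of the 6 libraries and HeatShock replicate 3 was the lowest. The scaled values were 24.8, 28.1 and 20.8 in the controls, against 15.7, 15.6 and 13.6 in the heated cells, so all 3 HeatShock libraries were below all 3 controls. The means were 24.6 ± 3.63 and 14.9 ± 1.19 (SD, n = 3), a ratio of 0.609. The log2 difference was -0.67 (standard error 0.16, 95% interval -1.07 to -0.28) at an unadjusted p of 0.00615 and an adjusted p of 0.913 in limma, which again does not pass. As deposited the difference was 0.18, of the opposite sign. With annotated transcripts alone the scaled difference was -0.26 (unadjusted p = 0.507, limma). In Control replicate 2, 34.9% of the MYC signal was in the annotated transcript.

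**Figure D1:**
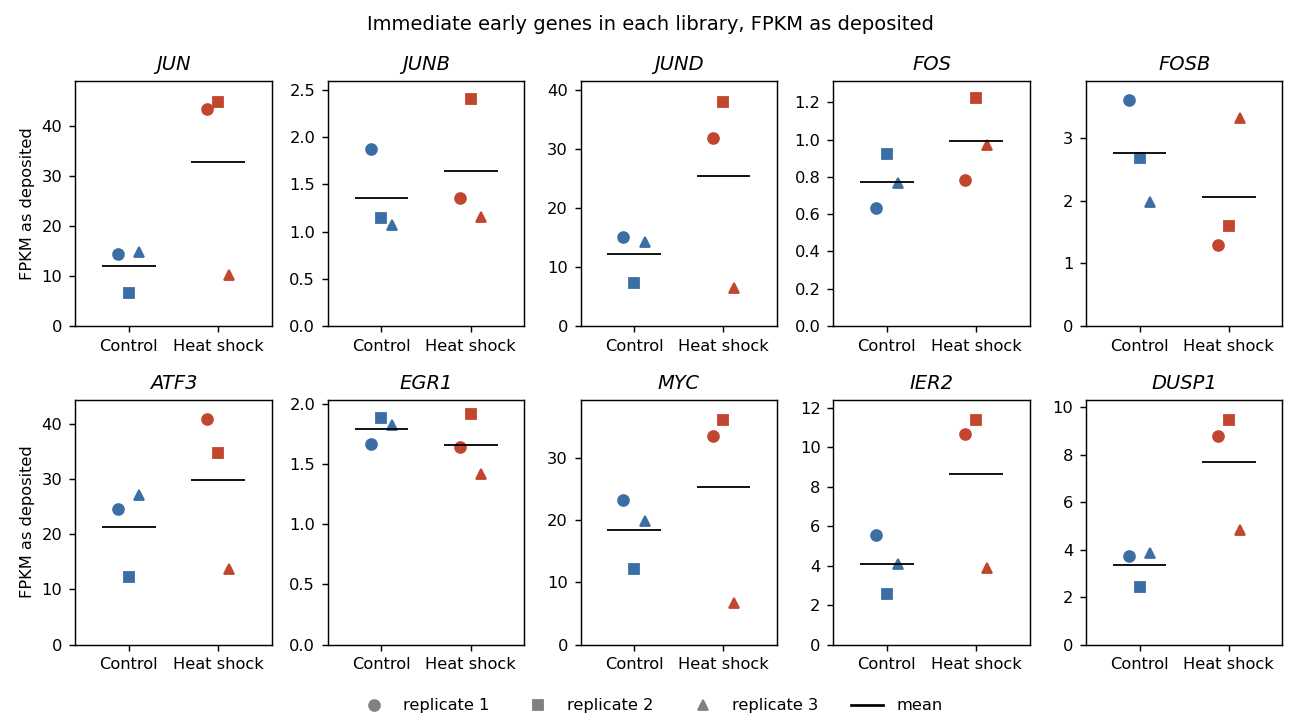
FPKM as deposited of the 10 immediate early genes in each library. Points are libraries, shaped by replicate number, bars are the means of the 3 Control and the 3 HeatShock libraries, and every axis starts at 0. HeatShock replicate 3 lies below HeatShock replicates 1 and 2 for JUN, JUNB, JUND, ATF3, EGR1, MYC, IER2 and DUSP1.

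**Figure D2:**
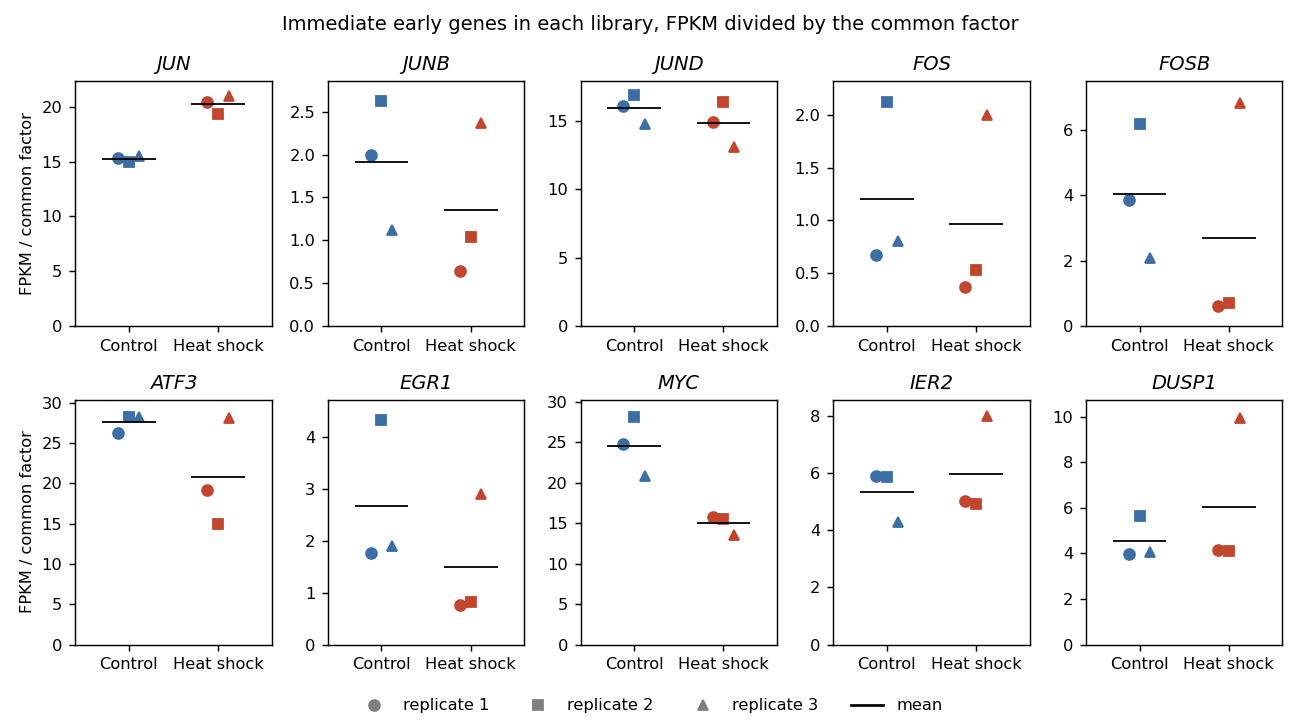
The same libraries and genes with FPKM divided by the common factor of the library, with bars for the means. JUN lies higher in all 3 HeatShock libraries and MYC lower, while the groups overlap for the other 8 genes.

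The groups overlapped for the other members of the JUN family on both scales, and the differences between the family members were not tested. JUND, the JUN protein of resting cells, had 15.0, 7.32 and 14.2 FPKM in the controls, against 31.8, 37.9 and 6.38 FPKM in the heated cells as deposited. HeatShock replicate 3 was the lowest library and the other HeatShock libraries the highest. The scaled values drew together to 16.0, 16.9 and 14.8 against 14.9, 16.4 and 13.1, and the groups overlapped. The log2 difference of JUND was then -0.10, with a 95% interval of -0.47 to 0.27. JUNB, which often opposes JUN in AP-1, was in the lower part of each library at 1.87, 1.14 and 1.07 FPKM in the controls, against 1.36, 2.40 and 1.16 FPKM in the heated cells. Scaled JUNB spanned 1.12 to 2.62 in the controls and 0.636 to 2.37 after heat shock. Its groups overlapped on both scales, and the interval of its log2 difference, -1.31 to 0.62 after division by the common factor, was wide enough to hold a 2-fold change downward.

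FOS was low in all 6 libraries, and FOSB varied between them. FOS, the classical partner of JUN, was at 0.630, 0.921 and 0.768 FPKM in the controls, against 0.781, 1.22 and 0.972 FPKM in the heated cells. Scaled FOS was 0.672, 2.12 and 0.802 in the controls and 0.366 and 0.528 in HeatShock replicates 1 and 2, while HeatShock replicate 3 lay just under Control replicate 2. The groups overlapped on both scales, the mean of all libraries was under 1 FPKM, and FOS was therefore not tested. With no minimum it had a log2 difference of 0.17 as deposited (adjusted p = 0.806, limma) and -0.20 divided by the common factor (adjusted p = 0.941, limma). FOSB, a second FOS protein, had 3.61, 2.68 and 1.99 FPKM in the controls, against 1.29, 1.60 and 3.32 FPKM in the heated cells. HeatShock replicates 1 and 2 were below all controls and HeatShock replicate 3 was above the control replicates 2 and 3. Scaled FOSB was 3.85, 6.17 and 2.08 in the controls, against 0.604, 0.689 and 6.82 in the heated cells, so HeatShock replicate 3 alone held the highest value. The log2 difference was -0.78 with a 95% interval of -2.55 to 0.99. Without HeatShock replicate 3 it was -1.53. FOSB lay above 51.2%, 55.4% and 33.2% of the genes tested in the controls, and above 21.3%, 21.4% and 60.2% in the HeatShock libraries.

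ATF3, the stress member of the AP-1 partners and known for its rise under amino acid and unfolded protein stress, was already among the higher genes of the untreated cells. It had 24.6, 12.3 and 27.0 FPKM in the controls, against 40.9, 34.8 and 13.7 FPKM in the heated cells as deposited. The groups overlapped, with HeatShock replicate 3 between the controls. As scaled FPKM it was 26.2, 28.3 and 28.3 in the controls, against 19.2, 15.0 and 28.2 in the heated cells. HeatShock replicates 1 and 2 then lay below all controls and HeatShock replicate 3 lay within them, and the log2 difference of -0.44 (95% interval -1.02 to 0.15) did not pass the test. ATF3 has several annotated transcripts, and its sum depended on how they were assembled. The share of its FPKM in annotated transcripts was 9.28%, 28.6% and 44.4% in the controls, against 100%, 22.6% and 36.8% in the heated cells. With annotated transcripts alone its log2 difference turned to 0.42 in scaled FPKM and was 1.18 as deposited.

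EGR1, a zinc finger factor with CArG boxes in its promoter, is usually among the strongest early responders to serum. Here it was flat and low as deposited, at 1.66, 1.88 and 1.82 FPKM in the controls, against 1.64, 1.91 and 1.42 FPKM in the heated cells. In scaled FPKM the values were 1.77, 4.32 and 1.91 against 0.770, 0.827 and 2.91, where the highest value of each group came from Control replicate 2 and HeatShock replicate 3. The groups overlapped on both scales and the 95% interval of the log2 difference ran from -1.72 to 0.54.

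IER2 and DUSP1 were intermediate. IER2 had 5.52, 2.54 and 4.10 FPKM in the controls, against 10.7, 11.4 and 3.88 FPKM in the heated cells as deposited, with HeatShock replicate 3 inside the control range. Scaled IER2 was 5.89, 5.85 and 4.29 against 5.01, 4.91 and 7.97, and the groups overlapped. Its log2 difference was 0.86 as deposited and 0.12 scaled, and with annotated transcripts alone it was 1.82 and 1.21 (unadjusted p = 0.0590 and 0.141, limma). DUSP1 had 3.73, 2.45 and 3.87 FPKM in the controls, against 8.80, 9.49 and 4.84 FPKM in the heated cells. It was the single member whose 3 HeatShock libraries all lay above the controls as deposited, with means of 3.35 ± 0.785 and 7.71 ± 2.51 (SD, n = 3). Its log2 difference was 0.97 (standard error 0.54, adjusted p = 0.710, limma), and 0.36 with annotated transcripts alone. After division by the common factor DUSP1 was 3.98, 5.63 and 4.04 in the controls, against 4.13, 4.10 and 9.94 in the heated cells. HeatShock replicate 3 was then far above the other 5 libraries, which overlapped, and the log2 difference of 0.26 became -0.11 without that library.

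Against all genes tested, the 10 genes gave few calls. As deposited, 0 of the 9 tested members were called at an adjusted p under 0.05 in limma with more than a 2-fold change, while 0.0154% of all 13027 genes were called higher and 0.00768% lower. At an unadjusted p under 0.05 there were 0 members in either direction, against 2.07% of all genes higher and 1.62% lower. In scaled FPKM, 0 members and 0% of all genes were called in either direction. At an unadjusted p under 0.05, 1 member was higher (JUN) and 1 lower (MYC), against 0.737% of all genes higher and 2.49% lower. All 3 HeatShock libraries lay above the controls for 1 of the 9 as deposited (DUSP1), where 3.71% of all genes did and 2.26% lay below. On the common factor scale 1 lay above (JUN, background 2.01%) and 1 below (MYC, background 5.38%). The median log2 difference of the 9 members was 0.40 as deposited and -0.34 after division, and that of all genes tested was 0.45 and -0.21.

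Leaving out Control replicate 2 and HeatShock replicate 3 together was an alternative added after the values were seen, and it changed the counts as deposited. JUN (log2 difference 1.53, adjusted p = 0.0416), JUND (1.20, adjusted p = 0.0428) and DUSP1 (1.08, adjusted p = 0.0467) were then called higher in limma. That is 3 of the 9 tested members, where 12% of all genes were called higher and 2.19% lower. At an unadjusted p under 0.05, 6 of the 9 were higher as deposited (36.5% of all genes) and 0 lower (7.35%), 6 lay above both remaining controls (56.7%) and FOSB lay below them (16.5%). In scaled FPKM the same 4 libraries gave 0 calls of 9, and 4 members were lower at an unadjusted p under 0.05 (FOSB, EGR1, ATF3 and MYC), where 19.2% of all genes were, and 0 were higher (1.4%). JUN and DUSP1 then lay above the controls (7.36%) and FOSB, JUNB, EGR1, ATF3 and MYC below them (45.9%). Without HeatShock replicate 3 alone, 0 members were called as deposited, where 0.0691% of all genes were called higher, and DUSP1, IER2, JUN and JUND were higher at an unadjusted p under 0.05, where 39.5% of all genes were higher and 9.36% lower. On that scale 6 of the 9 lay above all controls, against 55.7% of all genes, and FOSB below them, against 14.3%. In scaled FPKM without that library JUN was higher (1.13%) and FOSB, ATF3 and MYC were lower (20.9%) at an unadjusted p under 0.05, while JUN lay above all controls (4.31%) and 5 of the 9 below (41.9%). The members' shares were thus near those of all genes in several of these counts.

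The contrast was also taken inside and outside the pair of libraries that stood apart. JUN divided by the common factor was 1.40 times as high in HeatShock replicate 3 as in Control replicate 2, and 1.29 times as high in the mean of the other HeatShock as in the mean of the other Control libraries. MYC was 0.483 and 0.686 times its control level in the same contrasts. FOS, JUNB and EGR1 were also lower in both contrasts, and ATF3 was at 0.995 and 0.628 times its control level, but the groups of these genes overlapped. Outside the pair the median log2 difference of all genes tested was itself -0.27 in scaled FPKM. The share of all genes lower in both contrasts was not taken. DUSP1 was 1.77 times its control level inside the pair and 1.03 times outside it, and FOSB 1.11 and 0.218 times, so both depended on which libraries were compared.

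The place of a gene within its own library does not rest on any scaling between libraries. JUN lay above 84.8% to 87.6% of the genes tested in the controls and above 89.8% to 90.5% after heat shock. MYC lay above 89.7% to 92.4% in the controls and, lower, above 83.0% to 88.0% after heat shock. DUSP1 lay above 51.4% to 56.0% of the genes in the controls, against 64.5% to 74.6% in the heated cells. FOS lay above 5.83% to 16.1% of them in the controls, against 16.8% to 18.0% in the heated cells. These 4 genes had ranges that did not overlap between the groups, and the other 6 overlapped, ATF3 among them at 92.2% to 92.5% and 87.7% to 92.4%. Per length, ATF3, MYC, JUND and JUN thus stood above the other 6 members in every library, and together they held most of the summed FPKM. The share of JUN in that sum was 13.1% to 16.6% in the controls, against 19.5% to 25.0% in the heated cells, and that of MYC 22.2% to 24.6% and 12.6% to 19.9%. These places are descriptions and were not tested. The share of all genes tested whose places did not overlap was not taken, so the 4 genes are not read as a trait of the members.

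**Figure D3:**
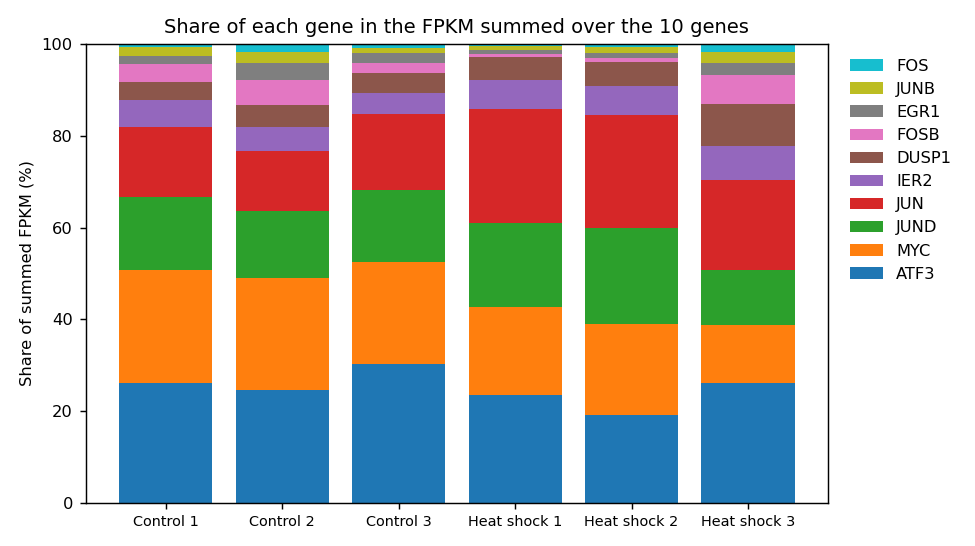
Share of each gene, in percent, in the FPKM summed over the 10 immediate early genes, 1 bar per library. The red segment of JUN is wider and the orange segment of MYC narrower in the 3 HeatShock libraries than in the 3 controls.

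The low members were set beside what the libraries held around them. Single-exon transcripts without a strand, within 10000 bases of the 10 genes, numbered 43, 75 and 18 in the Control and 2, 9 and 64 in the HeatShock libraries. Their FPKM were averaged around each gene, weighted by length. The median of these averages over the genes was 1.44, 1.68 and 3.36 FPKM in the controls, against 6.20, 3.10 and 2.01 FPKM in the heated cells. In HeatShock replicate 1 only 1 gene, JUN, had such neighbours. FOS at 0.921 FPKM in Control replicate 2 lay beside neighbours at 1.85 FPKM, and at 0.972 FPKM in HeatShock replicate 3 beside neighbours at 2.01 FPKM. FOS was below its neighbours in all 3 libraries that had any, and JUNB in all 5. EGR1 was below them in Control replicate 3 and HeatShock replicate 3, and FOSB and DUSP1 in Control replicate 3. JUN, JUND, ATF3, IER2 and MYC were above theirs in every library that had any. The part of this unannotated signal in the values of the low members was not tested.

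**Figure D4:**
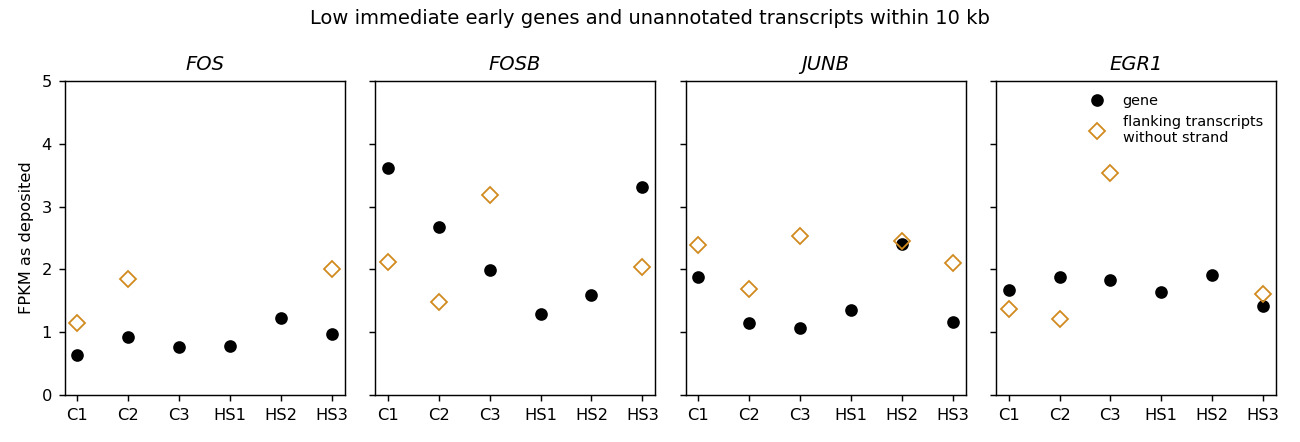
FPKM as deposited of FOS, FOSB, JUNB and EGR1 (black points) and of the strandless single-exon transcripts within 10000 bases (open diamonds, their average weighted by length) in Control replicates 1 to 3 (C1 to C3) and HeatShock replicates 1 to 3 (HS1 to HS3). No diamond is drawn where a library listed no such transcript, and for FOS and JUNB the gene lies below every diamond drawn.

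How the genes were assembled also differed between them. JUN and JUNB were read from their single-exon annotated transcript alone in all 6 libraries, so their sums do not depend on grouping, and JUND was in 5, with 76.4% in Control replicate 2. For JUN the interval that Cufflinks gives for fragment counting was 13.4 to 15.4 FPKM in Control replicate 1 and 41.3 to 45.7 FPKM in HeatShock replicate 1. MYC was annotated to 100% in 4 libraries, to 34.9% in Control replicate 2 and to 87.8% in HeatShock replicate 1. For DUSP1 the annotated transcript held 0%, 0% and 75.4% of the FPKM in the controls, against 46.1%, 6.82% and 0% in the heated cells, and the rest was in assembled variants. For IER2 it held 100%, 19.5% and 0% in the controls and 100%, 100% and 51.3% in the HeatShock libraries. In the authors' table the DUSP1 locus, chr5:172170112-172198276, and the FOSB locus, chr19:45971097-46010049, ran well past the annotated genes at chr5:172195093-172198203 and chr19:45971253-45978437. All positions are in hg19.

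The authors' pooled values, 1 per group with no spread, were higher in the heat shock column at 10 of 10 loci. The same was true of 87.2% of the 12400 named loci with at least 1 FPKM in the control column. The pooled FPKM were 16.6 and 104 for JUN, 24.0 and 78.9 for MYC, 16.5 and 75.7 for ATF3, 3.69 and 13.2 for DUSP1 and 0.891 and 1.90 for FOS. MYC was thus higher after heat shock in the pooled column and lower in all 3 libraries after division by the common factor. Over the 12400 named loci the pooled ratio, heat shock over control, had a median of 3.67. It was 3.29 for MYC, below that median, and 6.26 for JUN, above it.

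Among 50 other immediate early genes, 37 were tested and 0 were called in either direction on either scale. At an unadjusted p under 0.05, 2 were higher after division by the common factor, PPP1R15A and IER5L, and 0 were lower, where 0.737% of all genes were higher and 2.49% lower. As deposited 2 were higher and 1 was lower, where 2.07% and 1.62% of all genes were. All 3 HeatShock libraries lay above the controls for 4 of them on the common factor scale, PPP1R15A, IER5L, IER5 and ID1, and below for 0, where 2.01% of all genes lay above and 5.38% below. Their median log2 difference was -0.25, beside -0.21 for all genes tested. PPP1R15A, the phosphatase subunit that restarts translation after stress, was 4.73, 6.15 and 5.01 in the controls, against 32.8, 10.5 and 10.3 in the heated cells divided by the common factor. HeatShock replicate 1 was by far the highest, and the log2 difference of 1.39 (unadjusted p = 0.0249, adjusted p = 0.913, limma) was 0.87 without it. With annotated transcripts alone its sign turned, to -0.58 (unadjusted p = 0.146, limma). IER5, a nuclear early gene that binds heat shock factor HSF1, was 5.53, 6.64 and 5.48 in the controls, against 7.43, 8.45 and 8.88 in the heated cells, with a log2 difference of 0.43. IER5L, its relative, was 2.57, 2.72 and 3.37 against 4.63, 5.04 and 5.09, with a log2 difference of 0.61 (unadjusted p = 0.0309, limma).

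Most of the remaining early genes were low or overlapped. FOSL2, a FOS relative, was 1.63, 6.39 and 2.23 divided by the common factor in the controls, against 0.195, 0.0941 and 1.95 in the heated cells, and its log2 difference of -1.34 did not pass. As deposited it was 1.53, 2.77 and 2.13 FPKM in the controls, against 0.416, 0.218 and 0.948 FPKM in the heated cells. All 3 HeatShock libraries then lay below the controls, where 2.26% of all genes did. That log2 difference was -1.05 (unadjusted p = 0.0432, adjusted p = 0.710, limma). FOSL1 was listed at 0 in a library of each group and had a log2 difference of -1.12. NR4A1, an orphan nuclear receptor, was 4.57, 7.76 and 6.27 in the controls, against 3.46, 3.11 and 9.44 in the heated cells. KLF6 (2.82 to 2.94 in the controls, against 2.42 to 3.09 in the heated cells) and IER3 (3.15 to 6.28 and 4.92 to 5.98) overlapped. ZFP36, which binds AU-rich messages and speeds their decay, had a log2 difference of -0.75 with overlapping groups, and EGR2 and EGR3, the relatives of EGR1, were under the minimum FPKM.

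The machinery around these genes was also read. Of 19 kinases and factors that act upstream, 17 were tested and 0 were called or reached an unadjusted p under 0.05 on either scale, with a median log2 difference of -0.05 on the common factor scale. MAP2K1, a kinase that activates MAP kinases, was 6.51, 5.46 and 5.05 in the controls, against 9.21, 6.64 and 8.40 in the heated cells, all 3 above the controls, and with annotated transcripts alone its log2 difference turned from 0.44 to -0.91. MAPK9, a JUN kinase, overlapped with a log2 difference of -0.80. SRF, the factor of the CArG box, overlapped at 3.35 to 8.15 in the controls, against 3.29 to 7.05 in the heated cells.

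Of 12 partners of MYC and AP-1, 11 were tested and 0 were called. At an unadjusted p under 0.05, 2 were higher as deposited and 1 in scaled FPKM, where 2.07% and 0.737% of all genes were. The latter was ATF7, which can pair with JUN, at 0.292, 1.68 and 0 in the controls, against 3.57, 3.37 and 4.44 in the heated cells (log2 difference 1.66, adjusted p = 0.913, limma), where Control replicate 3 listed it at 0. BACH1 and MNT overlapped at log2 differences of -0.50 and -0.27. MAX, the partner of MYC, was 14.7, 10.8 and 10.8 in the controls, against 12.5, 12.0 and 12.1 in the heated cells, and ATF4, a partner of ATF3, was 300.1 to 326 and 307 to 324, with a log2 difference of 0.00 and a standard error of 0.07. Of 10 factors that degrade AU-rich messages, 8 were tested, 0 were called or reached an unadjusted p under 0.05, and the median log2 difference was 0.01. The smallest unadjusted p values among them, 0.137 for CNOT1, 0.239 for EXOSC9 and 0.415 for ELAVL1 in limma, belonged to log2 differences of 0.27, -0.28 and 0.14.

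The heat shock genes gave a scale for these differences. Of 12, 11 were tested and 0 were called. At an unadjusted p under 0.05, 5 were higher after division by the common factor and 3 as deposited, where 0.737% and 2.07% of all genes were. After division 6 lay above all controls, where 2.01% of all genes did. DNAJB1, a co-chaperone of HSP70, was 7.81, 11.1 and 9.59 in the controls, against 56.7, 50.2 and 69.8 in the heated cells, 6.19 times the control mean (log2 difference 2.51, adjusted p = 0.132, limma). HSPA1B was 3.81 times and HSPA1A 2.30 times the control mean, and these near-identical HSP70 copies can share reads. HSPA8 and HSPH1 had log2 differences of 0.33 and 0.35, near the 0.38 of JUN. The differences between JUN and these genes were not tested.

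**Figure D5:**
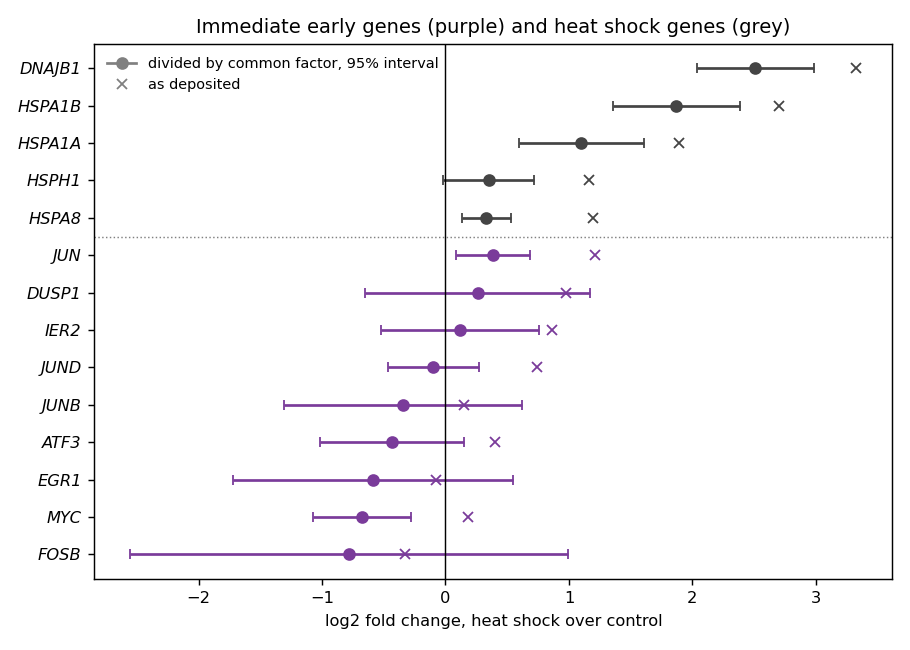
Log2 difference on log2(FPKM + 1), HeatShock over Control, of the 9 tested immediate early genes (purple) and 5 heat shock genes (grey). Circles with bars are values divided by the common factor with 95% intervals, crosses are values as deposited, and the interval of JUN lies above 0 and that of MYC below 0.

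Several of the 10 genes shared features of their transcripts that the choice by name did not use. JUN, JUNB and JUND have 1 exon and EGR1 and IER2 have 2, whereas 6.20% of the 11608 tested genes with a MANE transcript have 1 or 2 exons and the median is 9. The pentamer ATTTA, the core of AU-rich elements, occurred 5 times in the 3′ UTR of FOS and 4 times in that of DUSP1, 6.20 and 6.01 per kilobase, against a median of 1.38 over the same genes. MYC had 6 copies (3.01 per kilobase), JUN 3 (2.34), JUNB 2, ATF3 3 (2.46) and FOSB 3 (1.38). JUND and EGR1 had 1 each and IER2 had 0. The longer form TTATTTATT was found in FOS and DUSP1 alone, and in 8.09% of the genes searched.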

How the data were processed

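RNA-seq libraries of 3 Control and 3 HeatShock HEK293 samples, grouped by their GEO titles, were analysed. The authors used FastQC 0.10.1 for quality, Trimmomatic 0.3.0 for trimming, TopHat2 for alignment against hg19 and Cufflinks 2.0.2 for assembling each library. The deposited assemblies list every transcript with an FPKM, and a scaling between libraries is not given in the sources used here. The authors' Cuffdiff table (version not given in the sources used here) holds 1 pooled FPKM per group, and its columns of fold changes, p-values and q-values were not used. Read counts were not analysed here, and depth was read as coverage per FPKM.

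FPKM were summed by gene. Symbols of the 43536 annotated transcripts came from the RefSeq accession (42019) or from the gene name of the assembly (614), and the accession itself stood in for 903. Assembled transcripts were added where the annotated transcripts of their group belonged to 1 gene. Genes with a mean FPKM of 1 or more (13027) entered limma 3.58.1 in R 4.3.3 (lmFit, eBayes with trend) as log2(FPKM + 1), two-sided, with Benjamini-Hochberg adjustment, both as deposited and scaled. A call needed an adjusted p under 0.05 and more than 2-fold. The scale understates changes of low genes. The fits were tested on simulated data with 200 changed genes. At 2-fold, 0% of these were recovered on either scale. At 8-fold, 39.5% were recovered as deposited and 47.5% divided by the common factor, and at 32-fold 87% and 83%. Changes of 2-fold were thus out of reach of the calls. The titles number the samples, but no label says that they came from separate cultures, so p-values measure the spread between these samples, which may be technical.

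Sequences, starts and 3′ UTRs came from GRCh37 with GENCODE release 44, after a check that no transcript of the assemblies passed the end of any of the 24 nuclear chromosomes. Promoters were read over 250 bases. Cufflinks intervals (95%) cover fragment counting only.

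All 10 members were named. Of each other list, up to 3 genes with the smallest unadjusted p in the common factor fit were named where fewer than 3 were called, plus NR4A1, EGR2, EGR3, FOSL1, FOSL2, IER3, IER5, KLF6, ZFP36, PPP1R15A, SRF, MAX and ATF4, and the heat shock genes HSPA1A, HSPA1B, DNAJB1, HSPH1 and HSPA8. ID1 and the markers were named after their values were seen. Some genes of the lists are not reported here. The members, the lists and the common factor were chosen with earlier results of these data known. Alternatives were a pseudocount of 0.1, no minimum FPKM, a minimum of 10, no trend, the replicate block, each library left out, annotated transcripts alone, unadjusted p, median-of-ratios factors, TPM, a common factor over genes above 50 FPKM and upper quartile factors. Leaving out, or fitting a term for, Control replicate 2 and HeatShock replicate 3 was added after seeing the values.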

Additional observations from a re-analysis of the deposited data

How the results depend on the processing

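The number of members called was 0 in both directions on both scales under every alternative run except 1, which says nothing of stability, since few genes of any kind passed the adjusted threshold. Without Control replicate 2 and HeatShock replicate 3 together, 3 of the 9 tested members and 9 of the 37 other immediate early genes tested were called higher as deposited, where 12% of all genes were. With unadjusted p, 2 of the other immediate early genes were called higher and 1 lower as deposited, and 1 higher divided by the common factor. Of all 13027 genes tested, that setting called 268 higher and 209 lower as deposited, and 42 higher and 225 lower divided by the common factor. Leaving out 1 library at a time left the called counts at 0 throughout, while members whose groups did not overlap ranged from 1 to 6 above and 0 to 1 below as deposited, and from 1 to 2 above and 1 to 6 below divided by the common factor, the 6 arising without HeatShock replicate 3 on either scale and including FOS on the second. Without HeatShock replicate 3, 55.7% of all genes tested lay above the controls as deposited and 41.9% below them divided by the common factor. As deposited, median-of-ratios factors gave 2 members above, and TPM gave 1 below. The shares of all genes under those factors were not taken, so these counts are not read as a trait of the members.

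The direction of single genes changed more often. As deposited, the log2 difference of JUNB was -0.11 with median-of-ratios factors and -0.31 with TPM, that of ATF3 -0.0226 and -0.32, and that of MYC -0.25 and -0.56. EGR1 turned to 0.15 with annotated transcripts alone and to 0.0164 without both libraries that stood apart. Leaving out 1 library moved JUNB between -0.0509 and 0.30 and MYC between -0.22 and 0.92. Divided by the common factor, JUND turned to 0.0205 with annotated transcripts alone, to 0.0198 without both libraries and to 0.0569 with upper quartile factors. ATF3 became 0.42 and DUSP1 -0.0413 with annotated transcripts alone, and IER2 became -0.0182 without both libraries. Leaving out 1 library moved IER2 between -0.0789 and 0.22 and DUSP1 between -0.11 and 0.45. Annotated transcripts alone moved IER2 further, to 1.21 scaled and 1.82 as deposited. JUN and MYC kept their signs under all alternatives on the common factor scale, with 0.36 to 0.41 and -0.78 to -0.58 when 1 library was left out. Their unadjusted p in limma was above 0.05 under some of the alternatives, for JUN at 0.0681 without the trend, 0.0580 without HeatShock replicate 1, 0.0713 without both libraries, 0.0663 with annotated transcripts alone and 0.0733 with upper quartile factors, and for MYC at 0.507 with annotated transcripts alone and 0.118 with upper quartile factors. The cause of these changes was not tested.

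Whether the replicate numbers pair the samples could not be decided. Deviations of same-numbered libraries from their group means correlated at 0.03, -0.33 and -0.38 as deposited and at 0.02, -0.26 and -0.32 divided by the common factor. The libraries that stood apart, Control replicate 2 and HeatShock replicate 3, carry different numbers and weigh on these values. The replicate block left 0 members called on either scale, with unadjusted p of 0.0659 for JUN and 0.0130 for MYC in scaled FPKM (limma), and it moved the calls over all genes as deposited from 2 to 12 higher and from 1 to 5 lower. Without HeatShock replicate 3, 9 genes of all those tested were called higher as deposited, and 1562 without both libraries.

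Fragment depth is known only in relative terms, and genes near 1 FPKM, such as FOS, JUNB and EGR1, lay close to the level of the unannotated transcripts around them.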
